A study of Mus musculus with 8 samples.

Results

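The genes described here are 38 genes of the unfolded protein response (UPR) and the integrated stress response (ISR), taken by name from the 36333 genes of a read-count table of mouse skin. They are sensors of stress, the transcription factors below them, chaperones and folding factors of the endoplasmic reticulum (ER), ER-associated degradation genes, stress effectors, enzymes of amino acid and one-carbon metabolism and amino acid transporters. All 38 passed the filter on low counts. The study compared skin of Nampt-cKO mice (Nampt flox/flox; KRT5-CreERT2+, tamoxifen) with skin of control mice (Nampt flox/flox), all males on the C57BL/6J strain and 8 weeks old by the labels. There were 4 libraries of each group. Both groups carried the floxed Nampt alleles, and Nampt-cKO mice also carried the tamoxifen-inducible Cre driven by Krt5, a keratin gene of basal keratinocytes. Tamoxifen was injected intraperitoneally at 100 μg per g of body weight, daily for 5 days, and the study's methods place the RNA-seq at day 19 after tamoxifen. Those methods name 8 weeks as the age of Nampt-cKO mice at tamoxifen, so at day 19 these mice were older than 8 weeks. Effects of the deletion and of Cre cannot be told apart from these libraries. The labels name tamoxifen for Nampt-cKO libraries only. The study's methods give it to control mice too in another experiment, and a caption on its time course names tamoxifen and sampling for both groups. If these controls did not receive it, its effects cannot be told apart from those of the deletion either. The labels number the replicates without saying that each was a separate mouse. P-values thus rest on variation among these libraries, part or all of which may be technical.

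ER stress is sensed by PERK (Eif2ak3), IRE1 (Ern1) and ATF6, which slow translation and raise chaperones and degradation factors when unfolded proteins accumulate. PERK shares its target, the translation factor eIF2α, with GCN2 (Eif2ak4), which senses uncharged tRNA when amino acids run short. Phosphorylated eIF2α lowers general translation while ATF4 is translated more, and ATF4 turns on genes of amino acid synthesis and uptake, tRNA charging and feedback. In skin, keratinocytes, sebocytes and collagen-secreting fibroblasts all rely on ER folding capacity. The measurements here are RNA levels: they hold neither eIF2α phosphorylation, nor protein, nor the IRE1-dependent splicing of Xbp1, which a count per gene does not separate.

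The skin libraries held between 39390895 and 53762935 exon reads. Nampt, the targeted gene (chr12:32820335-32853369, GRCm38), had 32.3, 37.5, 76.1 and 49.6 CPM (exon reads scaled to library size with TMM factors) in the libraries labelled Nampt-cKO 1 to 4, against 77.7, 72.9, 71.0 and 60.4 CPM in controls 1 to 4. The library labelled Nampt-cKO 3 lay at the level of the controls, so its values went against its label for this gene. Counts are given below with and without it. Its 4 stress keratins summed to 18579.6 CPM and its 6 neutrophil markers to 731 CPM, against at most 2088 and 3.55 CPM in controls. Its neutrophil, macrophage, endothelial, skeletal muscle and adipocyte marker sums were the highest of its group. So were its low hair shaft (0.343 CPM) and B and plasma cell sums (1.05 CPM). The part of these cell types in its Nampt level was not tested. The study reports less Nampt mRNA and protein in Nampt-cKO epidermis. These libraries are of whole skin. Over all libraries Nampt did not pass the test (log2 fold change −0.53, edgeR adjusted p = 0.0974, from the quasi-likelihood fit with Benjamini-Hochberg adjustment). It passed with the library labelled Nampt-cKO 3 left out (log2 fold change −0.83, edgeR adjusted p = 0.00284), and over all libraries in limma-voom with sample weights (adjusted p = 0.0340) and in limma on log2 RPKM (0.0363 and 0.0391 at pseudocounts of 0.1 and 1). Whole skin holds many cell types, and several marker lists moved with the groups. The summed CPM of 4 stress keratins was 8575 to 19945 in Nampt-cKO skin and 1982 to 2088 in control skin, with 4 of 4 past the test as higher. The 6 neutrophil markers summed to 32.6 to 731 CPM in Nampt-cKO skin and 3.01 to 3.55 CPM in control skin, and 5 of 5 tested were higher. The 5 spinous and granular keratinocyte markers summed to 2069.7 to 7867 CPM in Nampt-cKO skin and 14470.3 to 15878 CPM in control skin, with 3 lower. The 6 fibroblast markers summed to 2184 to 4069.6 CPM in Nampt-cKO skin against 5050 to 7873 CPM in control skin. Of these the collagen genes Col1a1, Col1a2 and Col3a1 were lower, Pdgfra was higher (log2 fold change 0.88, edgeR adjusted p = 0.00999), and Dcn (−0.03) and Lum (−0.29) did not pass the test. The 6 basal keratinocyte markers summed to 20871 to 28047 CPM in Nampt-cKO skin and 19204 to 21595 CPM in control skin, with 3 higher. Of the other lists, 5 of 5 Langerhans and dendritic cell markers, 3 of 3 T cell markers, 3 of 6 sebaceous gland markers and 2 of 6 adipocyte markers were lower, as were 1 of 4 endothelial, 1 of 2 B and plasma cell and the 1 hair shaft marker tested. Of 5 macrophage markers 2 were higher and 1 was lower. By comparison, 23.8% of all genes tested were higher and 22% were lower. Adipocyte sums overlapped between groups (97.1 to 346 CPM in Nampt-cKO skin, 90.9 to 241 CPM in control skin). Endothelial (160 to 394 and 250 to 285 CPM) and macrophage sums (131 to 453 and 125 to 240 CPM) did too. The 6 skeletal muscle markers, none past the test, summed to 82.9 to 3166 CPM in Nampt-cKO skin and 154 to 2044 CPM in control skin. Krt81 of the hair shaft was at 0 in every library. Trac of T cells and Ighm of B cells have an exon length of 0 in the table, so their counts of 0 give no level. The part of these cell types in the results below was not tested, and in bulk skin fewer cells of a type and less RNA per cell cannot be told apart.

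Nampt-cKO skin had higher levels of Atf4, of the enzymes and transporters of amino acid supply and, by smaller folds, of most ER chaperones, while Ddit3, Xbp1, Eif2ak3 and Atf6 did not pass the test. Of the 38 genes, 24 were higher and 3 were lower, and 11 were not past the test (edgeR, BH-adjusted over 17286 genes, threshold 0.05). Over all genes tested, 23.8% were higher and 22% were lower. The median log2 fold change of the 38 genes was 0.43 (range −1.15 to 2.03), and that of all genes tested was −0.01. A log2 fold change of at least 1 together with a call was reached by 9 of the 38 genes, against 7.43% of all genes tested. Every Nampt-cKO library lay above every control for 22 genes (23% of all genes tested) and below for 3 genes (22.4% of all genes tested), and the groups overlapped for 13. Without the library labelled Nampt-cKO 3, 22 genes were higher and 3 were lower. By role, 9 of 11 chaperones and folding factors, 7 of 8 metabolic enzymes and 2 of 2 transporters were higher, with median log2 fold changes of 0.36, 1.34 and 1.42. Of the sensors 2 of 4 were higher, of the transcription factors 2 of 5 were higher and 1 was lower, of the degradation genes 1 of 3 was higher and 1 was lower, and of the effectors 1 of 5 was higher and 1 was lower.

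**Figure D1:**
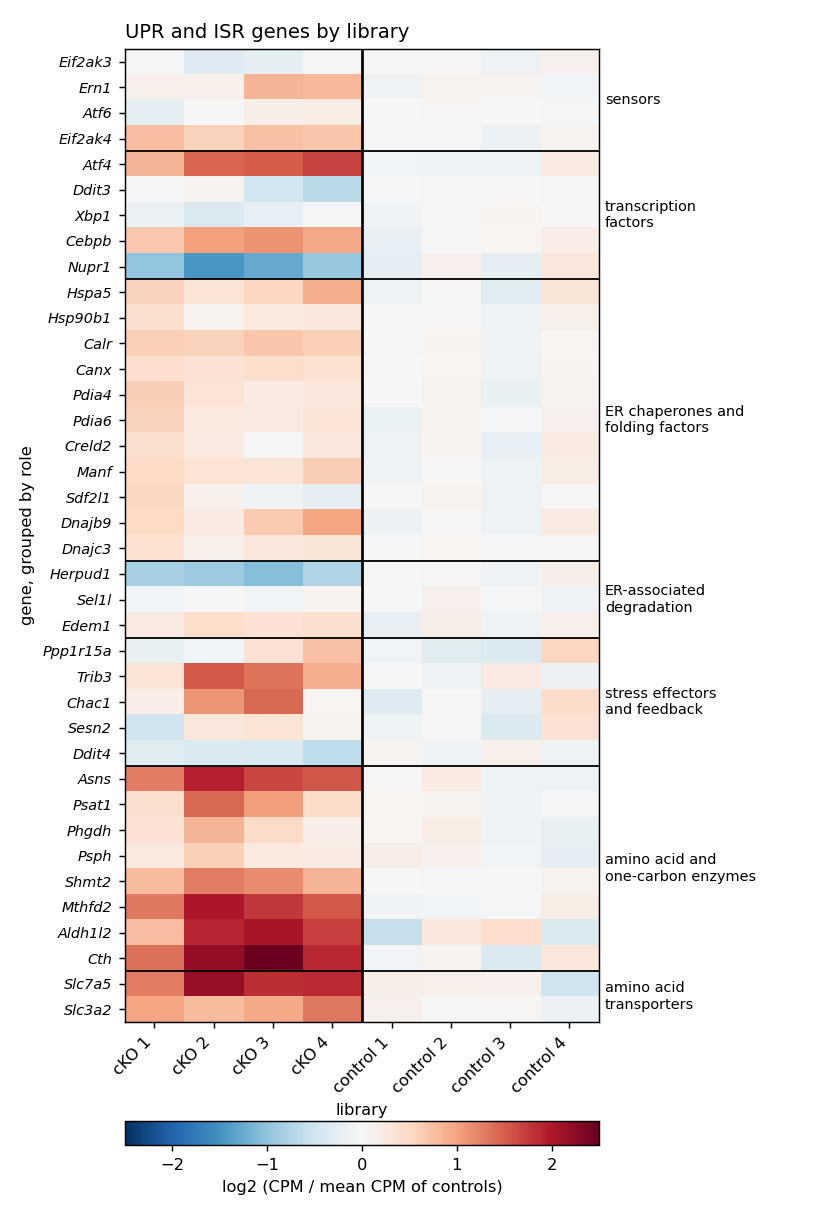
Heat map of the 38 UPR and ISR genes (rows, grouped by role) in the 4 Nampt-cKO and 4 control libraries (columns). Color is log2 of CPM over the mean CPM of the controls. Most enzyme rows and both transporter rows are red in the 4 Nampt-cKO libraries, while Psph and part of Phgdh are pale. Within an enzyme row, the palest Nampt-cKO value is mostly in Nampt-cKO 1. Nupr1 and Herpud1 are blue in all 4.

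The promoter windows of the genes were examined because ATF4 acts through the C/EBP-ATF response element (CARE), and ATF6 and XBP1 act through ER stress response elements (ERSE). RefSeq windows of GRCm38.p6, from 250 bases before to 50 bases after the start, were matched for 33 of the 38 genes. On both strands, 4 motifs were searched: CARE as TGATGNAAN, ERSE as CCAAT and CCACG separated by 9 bases, ERSE-II as ATTGG and CCACG separated by 1 base, and the XBP1 and ATF6 core TGACGTGG. No match overlapped another. The CARE letters were present in 5 of the 33 genes (15.2%) and in 4.50% of the 27025 genes of the table. The ERSE letters were present in 7 of the 33 genes (21.2%), namely Hspa5, Hsp90b1, Calr, Canx, Pdia6, Dnajc3 and Creld2, and in 37 genes (0.137%) of the table. The genes were listed with textbook knowledge of these elements, so the shares are a description. The windows below are those of 2 higher genes with CARE (Asns, Trib3), of 2 lower genes with CARE (Nupr1 and Herpud1, Herpud1 also with the only ERSE-II match) and of the chaperone genes Hspa5 and Calr with ERSE. Capitals mark the matched letters, which read as the reverse complement where the match lies on the other strand. The windows are chr6:7693160-7693459 for Asns, chr2:152344011-152344310 for Trib3 and chr7:126625421-126625720 for Nupr1, all on the minus strand. They are chr8:94386179-94386478 for Herpud1 and chr2:34771840-34772139 for Hspa5 on the plus strand, and chr8:84846882-84847181 for Calr on the minus strand.
Asns: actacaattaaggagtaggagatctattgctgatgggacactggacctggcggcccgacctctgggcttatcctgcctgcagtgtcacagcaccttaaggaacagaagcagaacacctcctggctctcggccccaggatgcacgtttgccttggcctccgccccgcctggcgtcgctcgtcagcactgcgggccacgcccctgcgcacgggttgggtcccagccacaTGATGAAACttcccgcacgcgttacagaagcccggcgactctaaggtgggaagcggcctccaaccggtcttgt
Trib3: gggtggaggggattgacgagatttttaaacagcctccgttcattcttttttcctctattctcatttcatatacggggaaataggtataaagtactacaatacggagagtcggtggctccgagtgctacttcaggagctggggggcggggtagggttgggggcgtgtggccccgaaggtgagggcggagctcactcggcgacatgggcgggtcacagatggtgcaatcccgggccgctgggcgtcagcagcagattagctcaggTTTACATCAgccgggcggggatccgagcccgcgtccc
Nupr1: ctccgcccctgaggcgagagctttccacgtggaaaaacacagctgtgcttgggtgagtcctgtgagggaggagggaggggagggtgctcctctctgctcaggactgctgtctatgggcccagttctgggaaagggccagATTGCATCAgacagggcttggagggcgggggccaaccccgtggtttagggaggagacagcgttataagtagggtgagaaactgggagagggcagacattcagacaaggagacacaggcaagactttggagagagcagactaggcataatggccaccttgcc
Herpud1: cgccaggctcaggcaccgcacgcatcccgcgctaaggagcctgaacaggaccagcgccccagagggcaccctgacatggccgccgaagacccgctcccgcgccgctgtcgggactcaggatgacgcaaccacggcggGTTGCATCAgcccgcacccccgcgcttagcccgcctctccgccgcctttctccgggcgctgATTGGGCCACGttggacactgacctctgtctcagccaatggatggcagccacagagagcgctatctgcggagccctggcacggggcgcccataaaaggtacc
Hspa5: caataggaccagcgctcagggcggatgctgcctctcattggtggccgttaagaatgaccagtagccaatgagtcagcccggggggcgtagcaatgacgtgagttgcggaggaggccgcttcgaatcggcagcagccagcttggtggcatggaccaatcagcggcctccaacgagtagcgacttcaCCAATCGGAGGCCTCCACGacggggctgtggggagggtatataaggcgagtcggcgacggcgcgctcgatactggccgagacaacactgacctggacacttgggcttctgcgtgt
Calr: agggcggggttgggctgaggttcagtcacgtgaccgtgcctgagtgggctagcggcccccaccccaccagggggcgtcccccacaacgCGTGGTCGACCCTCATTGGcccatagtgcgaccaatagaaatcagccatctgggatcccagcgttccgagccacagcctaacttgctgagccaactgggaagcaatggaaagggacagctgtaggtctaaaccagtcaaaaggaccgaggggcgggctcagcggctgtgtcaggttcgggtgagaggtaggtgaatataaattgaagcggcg

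Positions were counted from the RefSeq start on which each window is built, which can differ from the gene coordinates printed here. The window of Herpud1 lies inside its printed gene (chr8:94386138-94395366). The CARE match of Asns lay at bases −23 to −15, that of Trib3 at 14 to 22, that of Nupr1 at −111 to −103 and that of Herpud1 at −113 to −105. The ERSE-II match of Herpud1 lay at −52 to −42, and the ERSE matches of Hspa5 and Calr at −65 to −47 and −162 to −144. Of the 5 genes with CARE letters, Asns and Trib3 were higher, Nupr1 and Herpud1 were lower and Chac1 did not pass the test, so windows with the same letters belonged to genes that moved in opposite directions. Of the 7 genes with ERSE letters, 6 were higher and Creld2 did not pass the test, and their median log2 fold change was 0.35. Hsp90b1 held the ERSE letters at 2 places. The core TGACGTGG was in 0 of the 33 genes and in 0.714% of the genes of the table. A match says only that the letters are in this window.

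Among the sensors, Eif2ak4 rose and Eif2ak3 and Atf6 did not pass the test. Eif2ak4 (GCN2, chr2:118388581-118475234) had 27.0, 23.5, 26.3 and 25.5 CPM in Nampt-cKO skin, against 16.0, 16.0, 14.2 and 16.8 CPM in control skin. All 4 Nampt-cKO libraries lay close together and above every control, with a log2 fold change of 0.70 (SE 0.10, edgeR adjusted p = 5.13e-04). Eif2ak3 (PERK, chr6:70844483-70905241) had 44.7, 36.7, 39.2 and 46.7 CPM in Nampt-cKO skin and 46.5, 45.7, 41.9 and 49.2 CPM in control skin. The groups overlapped (log2 fold change −0.13, SE 0.10, edgeR adjusted p = 0.312). Atf6 (chr1:170704457-170867787), the ER-bound factor that is cleaved in the Golgi, had 48.1, 56.8, 62.0 and 63.5 CPM in Nampt-cKO skin and 56.6, 57.2, 56.2 and 54.3 CPM in control skin. Nampt-cKO libraries spread on both sides of the tightly grouped controls, with a log2 fold change of 0.04 (SE 0.09, edgeR adjusted p = 0.769). Ern1 (IRE1α, chr11:106397620-106487796) had 16.7, 16.7, 27.5 and 26.7 CPM in Nampt-cKO skin against 14.3, 16.2, 15.9 and 14.6 CPM in control skin. The libraries labelled Nampt-cKO 3 and 4 were well above the controls, and those labelled 1 and 2 barely so. Its log2 fold change was 0.52 (SE 0.19, edgeR adjusted p = 0.0446), and the call was lost under 12 of 20 alternatives, among them without the library labelled Nampt-cKO 3 (edgeR adjusted p = 0.119).

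Of the transcription factors, Atf4 and Cebpb rose, Nupr1 fell, and Ddit3 and Xbp1 did not pass the test. Atf4 (chr15:80255184-80257545), the central activator of the ISR, had 219, 334, 348 and 392 CPM in Nampt-cKO skin, against 116, 115, 114 and 142 CPM in control skin. Its lowest Nampt-cKO library, replicate 1, was still well above the highest control. The mean was 323 ± 73.9 CPM in Nampt-cKO skin and 122 ± 13.7 CPM in control skin (SD, n = 4 each). The log2 fold change was 1.41 (SE 0.17, edgeR adjusted p = 1.96e-04). Cebpb (chr2:167688915-167690432), a C/EBP factor that can pair with ATF4 and also acts in keratinocyte differentiation and inflammation, averaged 261 ± 33.5 CPM in Nampt-cKO skin and 135 ± 14.3 CPM in control skin (SD, n = 4 each, log2 fold change 0.95, edgeR adjusted p = 2.07e-04). Nupr1 (chr7:126623246-126625470), a small stress-induced chromatin protein and ATF4 target, moved the other way from Atf4. It had 72.8, 52.2, 60.3 and 74.3 CPM in Nampt-cKO skin against 123, 154, 123 and 175 CPM in control skin. All 4 Nampt-cKO libraries lay below every control (log2 fold change −1.15, SE 0.15, edgeR adjusted p = 3.19e-04). Only 66.1% of the exon reads of Nupr1 were counted as unique, and its call also held on unique reads.

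Ddit3 (chr10:127290793-127296291) encodes CHOP, the factor that links prolonged ER stress to cell death. It had 14.9, 16.3, 11.05 and 9.72 CPM in Nampt-cKO skin and 15.5, 15.8, 15.4 and 14.99 CPM in control skin. The controls lay close together, and Nampt-cKO replicates 3 and 4 were below them while replicates 1 and 2 were near them (log2 fold change −0.25, SE 0.17, edgeR adjusted p = 0.270). Ddit3 overlaps the neighboring gene Mars by 71 bases, and Mars rose (log2 fold change 0.82), and the share of reads counted for both was not tested. Xbp1 (chr11:5520641-5525993), the factor activated by IRE1 splicing, had 180.1, 158, 176 and 196 CPM in Nampt-cKO skin and 191, 206, 212 and 199.96 CPM in control skin. The highest Nampt-cKO library lay above the lowest control (log2 fold change −0.18, SE 0.08, edgeR adjusted p = 0.0914). Xbp1 passed as lower under 4 of 20 alternatives, among them without Nampt-cKO 4 (edgeR adjusted p = 0.0461).

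**Figure D2:**
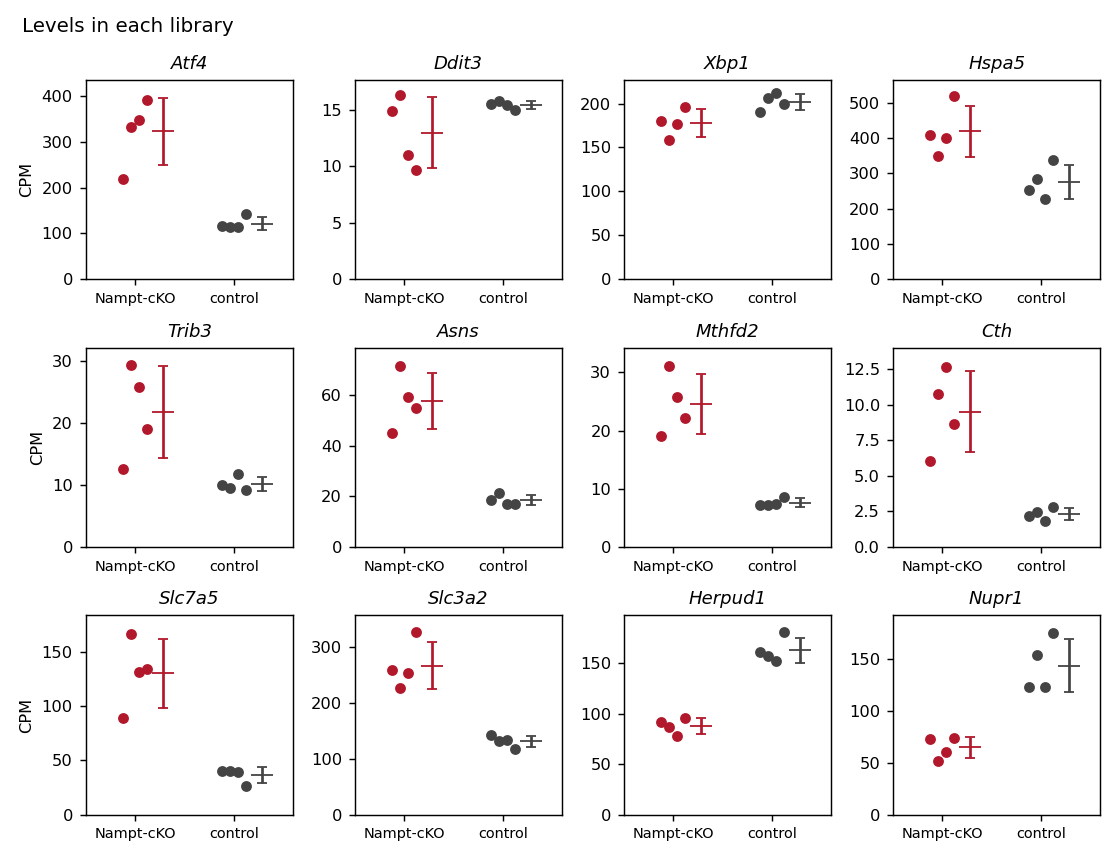
CPM of 12 genes in each library (points, replicates 1 to 4 from left to right) with the mean and SD of each group (n = 4), Nampt-cKO left of control, on axes that start at 0. Atf4, Trib3, Asns, Mthfd2, Cth, Slc7a5, Slc3a2 and Hspa5 separate upward, Herpud1 and Nupr1 separate downward, and Ddit3 and Xbp1 overlap.

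ER chaperones and folding factors were higher in 9 of 11 cases, where 23.8% of all genes tested were higher. All 9 rose by less than 1 on the log2 scale. In limma on log2 RPKM 5 of 11 were higher, and without control replicate 1 or 3 there were 6. Hspa5 (BiP, chr2:34772090-34776529), the main Hsp70 of the ER lumen and the chaperone that holds the sensors inactive, had 409, 348, 399.7 and 518 CPM in Nampt-cKO skin against 253, 283, 228 and 338 CPM in control skin. The lowest Nampt-cKO library was just above the highest control. Its log2 fold change was 0.60 (SE 0.15, edgeR adjusted p = 0.00921). Hspa5 overlaps Rabepk by 1748 bases, with 134178 exon reads counted for Hspa5 and 6754 for Rabepk. Only 39.7% of the exon reads of Hspa5 were unique, so reads may be shared with near-identical copies, and on unique reads alone its log2 fold change was 0.64 (edgeR adjusted p = 0.00946). Calr (calreticulin, chr8:84842088-84846931), a lectin chaperone for new glycoproteins, had a log2 fold change of 0.61 (SE 0.07, edgeR adjusted p = 1.57e-04), with 628 ± 25.6 CPM in Nampt-cKO skin and 409.8 ± 18.9 CPM in control skin (SD, n = 4 each). Its membrane-bound partner Canx (calnexin) had a log2 fold change of 0.40, and the BiP cochaperone Dnajb9 one of 0.61, with overlapping groups. Manf, a secreted ER stress-induced factor, was at 0.45, the disulfide isomerases Pdia4 and Pdia6 at 0.36 and 0.35, the PERK inhibitor Dnajc3 at 0.28 and Hsp90b1 (GRP94) at 0.25, all past the test as higher. Hsp90b1 is the least firm of these calls: it was lost under 14 of 20 alternatives. Creld2 (0.24) and Sdf2l1 (0.10) did not pass the test.

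In ER-associated degradation, misfolded proteins are drawn back to the cytosol for the proteasome, and of its 3 genes 1 rose and 1 fell. These are few genes to set beside the 23.8% higher and 22% lower over all genes tested. Herpud1 (chr8:94386138-94395366), an ER membrane organizer of the degradation complex that is induced by ER stress in many cells, had 91.4, 86.6, 78.0 and 96.2 CPM in Nampt-cKO skin against 161, 157, 152 and 181 CPM in control skin. Every Nampt-cKO library was far below every control (log2 fold change −0.89, SE 0.09, edgeR adjusted p = 7.95e-05). Sel1l, the adaptor of the ubiquitin ligase, did not pass the test (log2 fold change −0.02, edgeR adjusted p = 0.847). Edem1, a lectin that delivers glycoproteins to degradation, rose (log2 fold change 0.36, edgeR adjusted p = 0.0156).

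Of the 5 stress effectors, Trib3 rose and Ddit4 fell, where 23.8% of all genes tested were higher and 22% were lower. Trib3 (chr2:152337425-152344060), a pseudokinase that ATF4 and CHOP induce, had 12.6, 29.4, 25.9 and 19.1 CPM in Nampt-cKO skin against 10.03, 9.57, 11.8 and 9.19 CPM in control skin. Nampt-cKO 1 lay just above the controls and the other 3 well above them (log2 fold change 1.10, SE 0.24, edgeR adjusted p = 0.00490). Chac1, which degrades glutathione, had 3.30, 6.39, 8.00 and 3.05 CPM in Nampt-cKO skin and 2.35, 2.93, 2.49 and 4.05 CPM in control skin. Its groups overlapped, and it did not pass the test (log2 fold change 0.81, SE 0.35, edgeR adjusted p = 0.0885), though it passed without Nampt-cKO 1 or 4 (edgeR adjusted p = 0.0420 and 0.0457). Ddit4 (REDD1, chr10:59949675-59951770), an inhibitor of mTORC1, fell by 0.41 on the log2 scale (edgeR adjusted p = 0.00699), with 332 ± 33.1 CPM in Nampt-cKO skin and 441 ± 35.9 CPM in control skin (SD, n = 4 each). Ppp1r15a (GADD34), the inducible subunit of the eIF2α phosphatase, and Sesn2, a stress-induced brake on mTORC1, did not pass the test (log2 fold changes 0.26 and 0.09, edgeR adjusted p = 0.425 and 0.752).

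Of the 8 enzymes of amino acid and one-carbon metabolism, 7 rose, 5 of them by a log2 fold change of at least 1. Of all genes tested, 23.8% were higher, and 7.43% were higher by at least that fold change. Cth (cystathionine gamma-lyase, chr3:157894248-157925077), which makes cysteine, had 6.04, 10.7, 12.7 and 8.62 CPM in Nampt-cKO skin against 2.21, 2.46, 1.82 and 2.83 CPM in control skin. Its log2 fold change was 2.03 (SE 0.26, edgeR adjusted p = 2.91e-04), and 1.29 in limma on log2(RPKM + 1). Asns (asparagine synthetase, chr6:7675165-7693182) had 45.1, 71.5, 59.1 and 54.7 CPM in Nampt-cKO skin, against 18.7, 21.5, 17.1 and 16.9 CPM in control skin. All Nampt-cKO libraries lay above the highest control, and the log2 fold change was 1.63 (SE 0.15, edgeR adjusted p = 4.95e-05). Of the mitochondrial one-carbon enzymes, Mthfd2 (chr6:83305704-83326035) had 19.2, 31.1, 25.9 and 22.1 CPM in Nampt-cKO skin and 7.15, 7.24, 7.45 and 8.68 CPM in control skin. Its log2 fold change was 1.69 (SE 0.17, edgeR adjusted p = 7.18e-05). Aldh1l2 (chr10:83487447-83534151), which oxidizes formyl-tetrahydrofolate in mitochondria, had 5.08, 11.2, 12.4 and 9.82 CPM in Nampt-cKO skin and 2.02, 3.61, 4.02 and 2.32 CPM in control skin. The groups of this low gene separated by a small gap (log2 fold change 1.68, SE 0.33, edgeR adjusted p = 0.00262). Shmt2 (chr10:127517123-127522444), the mitochondrial serine hydroxymethyltransferase, had 98.7, 140.5, 129 and 103 CPM in Nampt-cKO skin and 56.4, 54.9, 56.2 and 60.3 CPM in control skin (log2 fold change 1.05, SE 0.12, edgeR adjusted p = 1.42e-04). Its controls differed little from each other, and every Nampt-cKO library was above them.

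The 3 enzymes of serine synthesis had log2 fold changes of 0.33 to 0.90. Psat1 had 122, 249, 191 and 126 CPM in Nampt-cKO skin and 95.1, 97.0, 87.3 and 90.7 CPM in control skin (log2 fold change 0.90, SE 0.21, edgeR adjusted p = 0.00699). Phgdh, the first enzyme of the route, rose with a log2 fold change of 0.48 (edgeR adjusted p = 0.0216) and overlapping groups, and Psph, the last, did not pass the test (log2 fold change 0.33, edgeR adjusted p = 0.0549) although every Nampt-cKO library lay above every control. Psph passed with a filter of a mean of at least 1 CPM (0.0403). The transporter pair forms a heterodimer that carries large neutral amino acids. Slc7a5 (LAT1, chr8:121881146-121907686) had 89.3, 166, 131 and 134 CPM in Nampt-cKO skin against 40.5, 40.2, 39.7 and 26.0 CPM in control skin. Its log2 fold change was 1.83 (SE 0.20, edgeR adjusted p = 1.33e-04). Its partner Slc3a2 (CD98, chr19:8706882-8723369) had 259, 226, 252 and 325 CPM in Nampt-cKO skin against 142, 131, 133 and 118 CPM in control skin (log2 fold change 1.02, SE 0.12, edgeR adjusted p = 1.48e-04). Both genes were higher in each of the 4 Nampt-cKO libraries than in any control, as were 23% of all genes tested.

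**Figure D3:**
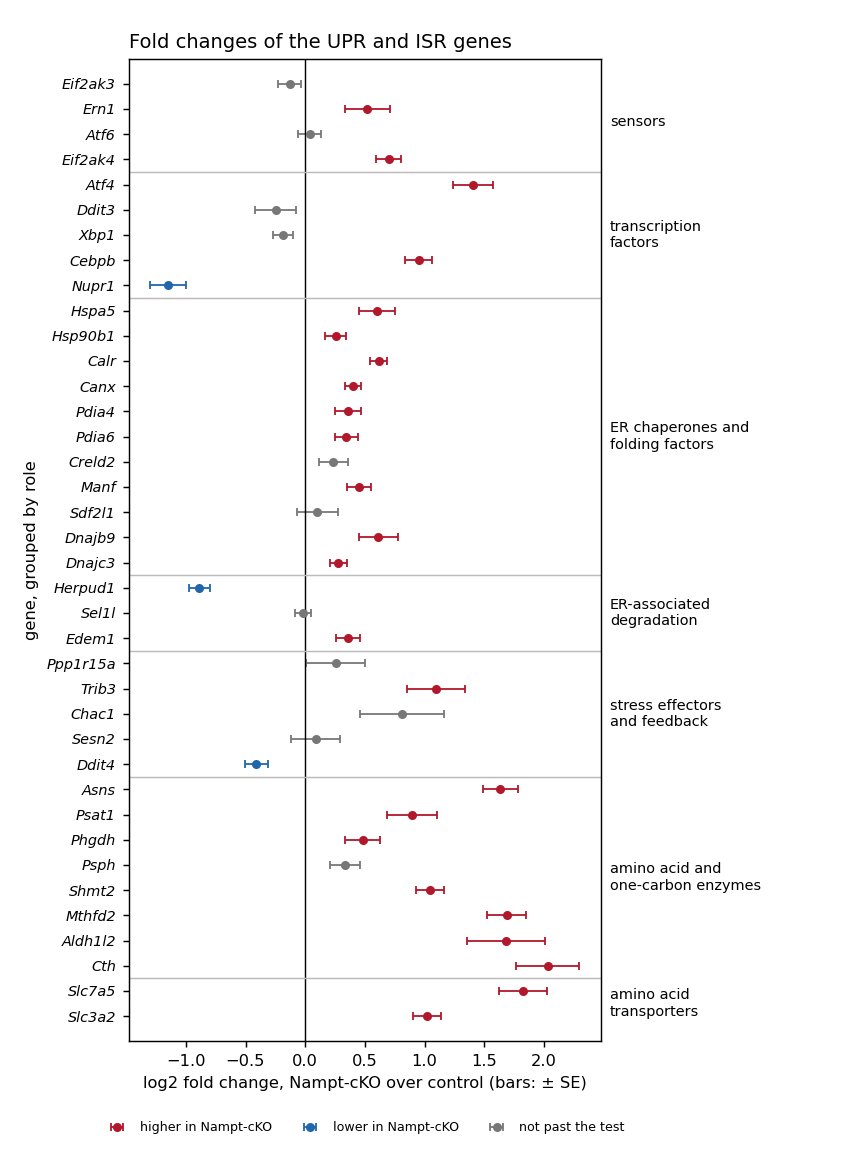
Log2 fold changes of the 38 genes, Nampt-cKO over control, with bars of 1 SE, grouped by role. Red points are higher and blue points lower by edgeR with BH adjustment, and gray points did not pass the test. The enzymes and transporters reach furthest to the right, up to 2.03 for Cth, while the chaperones sit between 0.10 and 0.61.

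The Nampt-cKO libraries were not alike, and the order differed between roles. Of the 8 enzymes, 6 had their lowest Nampt-cKO value in replicate 1 and 6 had their highest in replicate 2. Over the enzymes, the median log2 ratio to the control mean was 0.78, 1.67, 1.42 and 1.19 in Nampt-cKO 1 to 4. Of the 11 chaperones and folding factors, 6 were highest in replicate 1 and 6 were lowest in replicate 2, with median log2 ratios of 0.50, 0.25, 0.27 and 0.32. Replicate 1, with the lowest enzyme values, also had the lowest summed stress keratins (8575, 19945, 18579.6 and 13874 CPM in Nampt-cKO 1 to 4) and neutrophil markers (32.6, 515, 731 and 157 CPM). The part of these markers in the order was not tested. Per length, control levels ran from 0.415 RPKM (reads scaled by exon length and library size) for Aldh1l2 to 226 RPKM for Ddit4, with Nupr1 at 198 RPKM and Calr at 182 RPKM. In Nampt-cKO skin Calr stood at 264 RPKM, Ddit4 at 161 RPKM, Atf4 at 152 RPKM and Nupr1 at 84.6 RPKM. In control skin Atf4 was at 60.9 RPKM. Ddit3 was at 4.23 RPKM in Nampt-cKO skin and 5.29 RPKM in control skin.

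Intron reads, which come largely from unspliced RNA, gave a further readout from the same libraries and are not an independent replicate. Introns held 12.7% to 16.5% of gene reads in Nampt-cKO libraries and 10.8% to 11.8% in controls. Of 37 genes with enough intron reads, 10 were higher and 2 were lower, while 13.8% of all genes tested on introns were higher and 14.4% were lower. The 10 were Aldh1l2, Asns, Atf4, Canx, Cth, Eif2ak4, Hspa5, Shmt2, Slc3a2 and Trib3, all of which were also higher in exon reads. Without the library labelled Nampt-cKO 3, 7 were higher and 2 were lower. Asns intron reads had a log2 fold change of 1.49 beside 1.63 for its exon reads, and Cth 2.14 beside 2.03. Herpud1 was lower in both, with log2 fold changes of −1.33 in introns and −0.89 in exons. Some genes passed the test in exons and not in introns. Slc7a5 had a log2 fold change of 0.17 in introns and 1.83 in exons, Mthfd2 0.49 and 1.69, and Nupr1 0.22 and −1.15. The difference between the readouts was not tested. Phgdh went in opposite directions: its introns were lower (log2 fold change −0.89, edgeR adjusted p = 0.0168) and its exons higher (0.48).

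**Figure D4:**
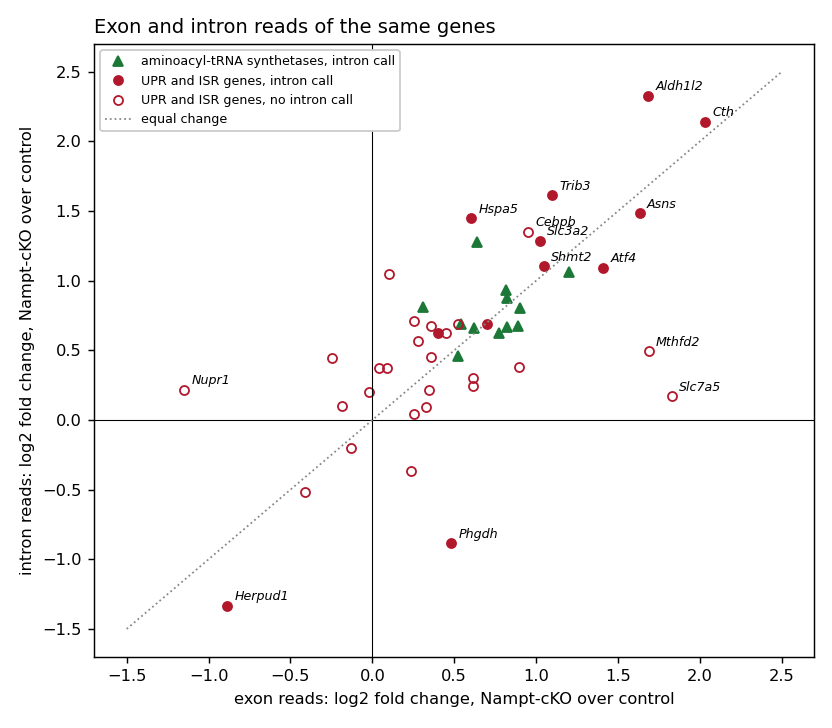
Log2 fold changes, Nampt-cKO over control, of exon reads (horizontal axis) and intron reads (vertical axis) for 37 UPR and ISR genes (circles, filled where the intron reads passed the test) and 12 aminoacyl-tRNA synthetases (triangles). The dotted line marks equal change. Cth, Asns and Atf4 lie near it, Slc7a5, Mthfd2 and Nupr1 lie near 0 to 0.49 on the intron axis, and Phgdh lies below 0 in introns only.

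The wider pathway list held 60 other genes of the UPR and ISR, of which 59 were tested and Fgf21 was too low. Of these 34 were higher and 7 lower, and 18 were not past the test, with a median log2 fold change of 0.49, where 23.8% of all genes were higher and 22% were lower. Without the library labelled Nampt-cKO 3 the counts were 34 and 5. The aminoacyl-tRNA synthetases on the list, which charge tRNAs with amino acids and are known ATF4 targets, were higher in 12 of 12 cases (median log2 fold change 0.79, range 0.31 to 1.20). The list was chosen with earlier results of these data known. It does not hold every synthetase, and the others were not examined. Every Nampt-cKO library lay above every control for each of the 12, as it did for 23% of all genes tested. All 12 were also higher in intron reads, where 13.8% of all genes tested on introns were higher. Tars (threonyl-tRNA synthetase) had 100.1, 122, 114 and 117 CPM in Nampt-cKO skin against 66.1, 65.5, 64.7 and 60.3 CPM in control skin (log2 fold change 0.82, edgeR adjusted p = 6.39e-05). Of 9 genes for eIF2, its exchange factor eIF2B, the other kinases and the phosphatase, 7 were higher. Eif2s1, which encodes eIF2α, had 95.3, 119.9, 122 and 121 CPM in Nampt-cKO skin and 57.0, 55.9, 55.0 and 56.7 CPM in control skin (log2 fold change 1.03, edgeR adjusted p = 4.00e-05). The kinases Eif2ak1 and Eif2ak2 were the 2 that did not pass.

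Among ATF4-linked genes of the list, 6 of 10 tested were higher and 2 were lower, where 23.8% of all genes tested were higher and 22% were lower. Slc7a11, the cystine transporter subunit that also partners with Slc3a2, had 12.4, 28.2, 36.2 and 20.5 CPM in Nampt-cKO skin against 0.480, 0.165, 0.560 and 0.530 CPM in control skin, with 84 exon reads over the 4 controls. Its log2 fold change was 5.81 (SE 0.46, edgeR adjusted p = 2.46e-05). In limma on log2 RPKM it was 3.87 and 1.52 at pseudocounts of 0.1 and 1. Slc7a1, a carrier of arginine and lysine, had 70.02, 132, 145 and 127 CPM in Nampt-cKO skin and 26.6, 28.2, 20.2 and 23.8 CPM in control skin (log2 fold change 2.26, edgeR adjusted p = 6.32e-05). In both, Nampt-cKO 1 was the lowest of its group and still well above the controls. Slc1a4, a carrier of small neutral amino acids, went the other way, with 10.3, 8.74, 9.27 and 9.22 CPM in Nampt-cKO skin and 24.9, 23.7, 20.3 and 26.6 CPM in control skin (log2 fold change −1.35, edgeR adjusted p = 5.11e-05).

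Of 11 further ER folding factors, 8 were higher and 1 was lower, where 23.8% of all genes tested were higher and 22% were lower. Hyou1, an ER nucleotide exchange factor and chaperone, had 161, 129, 120.1 and 142 CPM in Nampt-cKO skin and 87.2, 95.6, 86.3 and 104 CPM in control skin (log2 fold change 0.57, edgeR adjusted p = 0.00207). Of 8 further degradation genes, 0 were higher and 1 was lower, few genes to set beside these shares. The lower gene was Edem2 (log2 fold change −0.53, edgeR adjusted p = 0.00417), with 33.0, 29.6, 24.8 and 27.4 CPM in Nampt-cKO skin and 40.8, 37.3, 40.5 and 46.9 CPM in control skin. Of 9 ER-bound and ISR transcription factors, 1 was higher and 3 were lower. Creb3l1 (OASIS), an ER-bound factor of collagen-secreting cells, had 18.7, 12.6, 13.5 and 21.4 CPM in Nampt-cKO skin against 34.3, 35.0, 45.2 and 41.6 CPM in control skin (log2 fold change −1.24, edgeR adjusted p = 6.06e-04). Of the fibroblast markers, the 3 collagen genes were lower in Nampt-cKO skin as well, while Pdgfra was higher and Dcn was at −0.03. Their part in this was not tested. Nfe2l1, an ER-bound activator of proteasome genes, had 368, 298, 339.7 and 333 CPM in Nampt-cKO skin and 460.3, 464, 426 and 477 CPM in control skin (log2 fold change −0.45, edgeR adjusted p = 0.00191). Atf3, a stress-induced factor downstream of ATF4, varied widely within both groups, with 35.8, 13.1, 27.5 and 261 CPM in Nampt-cKO skin and 192, 86.5, 45.3 and 575 CPM in control skin. Replicate 4 was the highest of each group, and Atf3 did not pass the test (log2 fold change −1.42, SE 1.01, edgeR adjusted p = 0.283). It passed with the replicate number as a block (edgeR adjusted p = 0.00646) and without Nampt-cKO 4 (log2 fold change −3.14, 0.0206). Without control 4 its log2 fold change was −0.36 (edgeR adjusted p = 0.796).

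**Figure D5:**
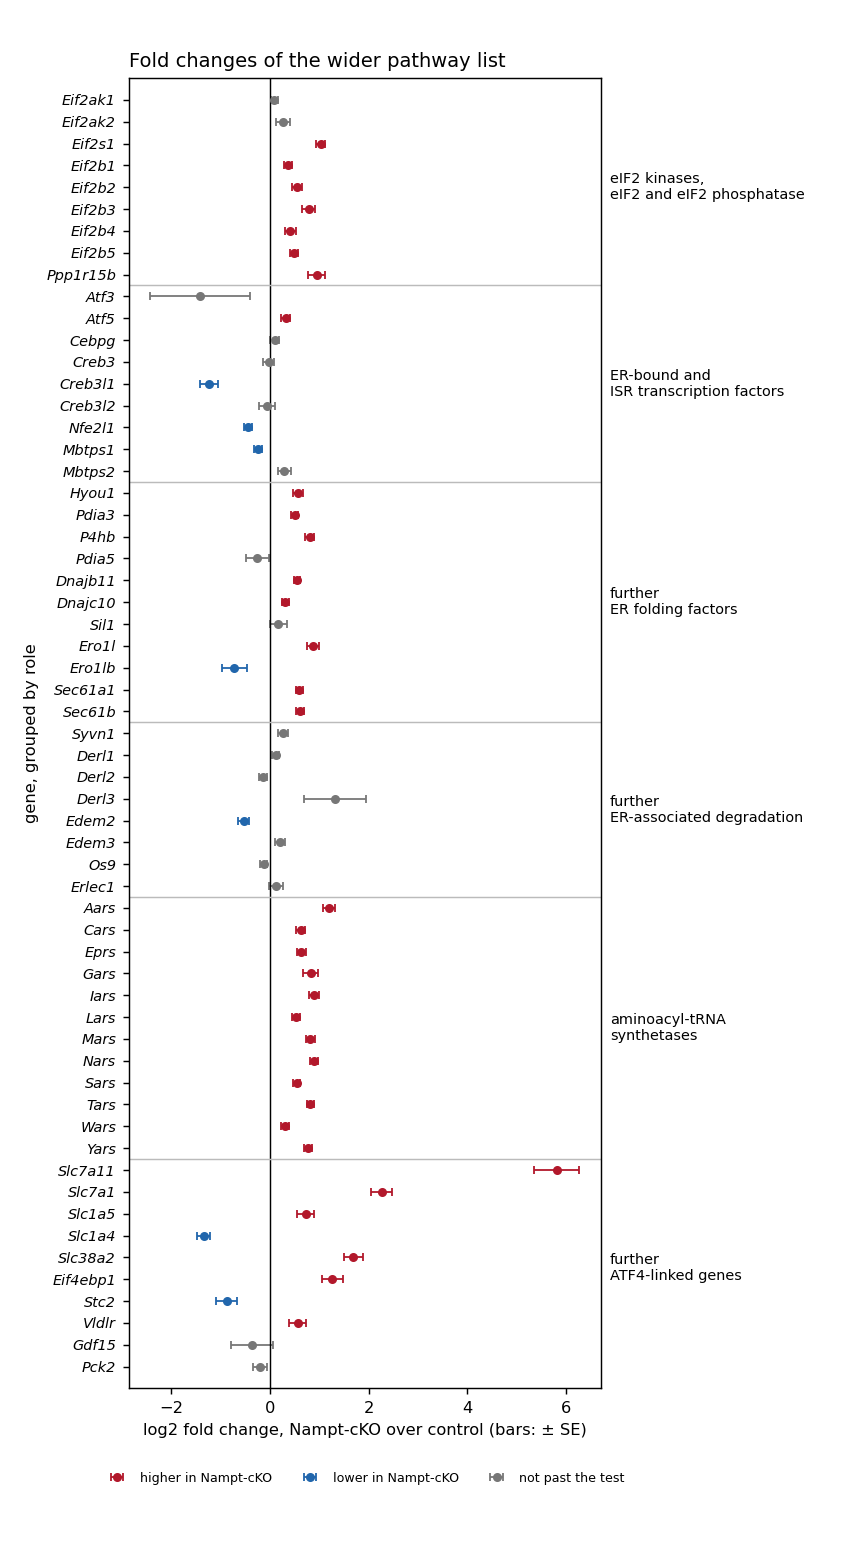
Log2 fold changes of the 59 tested genes of the wider list, Nampt-cKO over control, with bars of 1 SE, grouped by role and colored as higher (red), lower (blue) or not past the test (gray). All 12 aminoacyl-tRNA synthetases on the list are red, 7 of 8 further degradation genes are gray, and Slc7a11 is at 5.81.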

How the data were processed

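RNA of whole skin was poly-A selected and sequenced on an Illumina instrument. The authors' deposited table gives, per gene and library, whole-number read counts on exons (all and unique), genes and introns, and RPKM values that the authors computed from exon reads and exon length. The submitters' processing notes name GRCm38 (mm10). For the aligner, the counter and the use of strand, nothing was given in the sources used here. Between 61.7% and 64.2% of the nonzero exon counts per library were even, as where both mates of a pair add 1 each. Gene ends equalled those of RefSeq for 23233 genes, of which 17987 matched its start after 1 was added, so starts are printed counted from 1. A further 16 columns hold fold changes and p-values of the authors' own comparisons and were not used.

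Exon counts of all 8 libraries were fitted in R 4.3.3 using edgeR 4.0.16 (default filterByExpr, TMM scaling, quasi-likelihood F test, group as the only term), with Benjamini-Hochberg adjustment over the 17286 genes tested, which held 99.95% of exon reads, and a threshold of 0.05. The biological coefficient of variation was 0.283. Intron counts were fitted the same way over 15895 genes. Within groups, libraries differed beyond sampling noise (chi-square per gene 88.2 to 287 among Nampt-cKO libraries and 17.9 to 61.8 among controls). Mates counted separately would raise these values. Replicates are as the labels give them. CPM values are TMM-normalized. DESeq2 1.42.0 and limma 3.58.1 (voom with sample weights, log2 of RPKM plus 0.1 or 1) served as alternatives, beside other scalings and filters, unique exon reads, total gene reads, the replicate number as a block and each library left out. The genes, the wider list, the marker lists and the tests were chosen with earlier results of these data known. All 38 genes are accounted for, with values in every library for those past the test with an absolute log2 fold change of at least 1 and for Atf4, Ddit3, Xbp1, Hspa5 and the 4 sensors, and up to 4 genes per direction by smallest p from the wider list, with Atf3 and Hyou1. Per-library values of Psat1, Chac1 and Herpud1 were added after they had been seen. Promoter sequences are those of RefSeq for GRCm38.p6. A search of protein ends for ER retention signals was planned and not run. The hair shaft marker Krt85 was not analysed here.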

Additional observations from a re-analysis of the deposited data

Results flagged for a closer look

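Single libraries stood apart from the other 3 of their group for 5 of the 98 sets of 4 values examined (49 genes in both groups, the 38 genes, the named genes of the wider list and Nampt), and chance flags about 1 in 20 such sets. In Nampt-cKO skin, Psph was at 45.4 CPM in replicate 2 and at 34.9 to 36.0 CPM in the others. Eif2s1 was at 95.3 CPM in Nampt-cKO replicate 1 and at 119.9 to 122 CPM in the others, and Atf3 was at 261 CPM in Nampt-cKO replicate 4 and at 13.1 to 35.8 CPM in the others. Among controls, Atf4 was at 142 CPM in replicate 4 and at 114 to 116 CPM in the others, and Slc7a5 was at 26.0 CPM in replicate 4 and at 39.7 to 40.5 CPM in the others. Without control replicate 4, Atf4 and Slc7a5 stayed past the test as higher.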

How the results depend on the processing

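Over 20 alternatives (8 of them each leaving out 1 library), 17 of the 24 higher calls and 3 of the 3 lower calls held throughout, and 4 of the 11 genes not past the test stayed so with the same sign. Higher calls lost under at least 1 alternative, with the highest adjusted p over the edgeR, DESeq2 and limma alternatives, were Ern1 (0.119), Hsp90b1 (0.167), Pdia4 (0.0956), Pdia6 (0.0763), Dnajc3 (0.0765), Edem1 (0.0522) and Phgdh (0.0644). Pdia4, Pdia6 and Edem1 were lost without control replicate 1 or 3 and Phgdh without control replicate 3 or 4, and Psph passed under 3 alternatives, a filter of a mean of at least 1 CPM (0.0403), the replicate number as a block (0.0472) and the omission of Nampt-cKO replicate 1 (0.0499). The number of higher genes among the 38 was 18 to 25 with 1 library left out (18 without control replicate 3) and 18 in limma on RPKM with either pseudocount, and the number of lower genes was 3 to 4. In limma on RPKM, 5 of 11 chaperones and folding factors were higher, beside 9 in edgeR. The median log2 fold change of all genes was −0.10 and −0.05 there at pseudocounts of 0.1 and 1, beside −0.01 in edgeR. Genes not past the test changed sign. Atf6 had a log2 fold change of −0.0148 with upper-quartile factors, −0.0530 and −0.0458 in limma on RPKM (pseudocounts 0.1 and 1), and −0.00403 and −0.0109 without Nampt-cKO replicates 3 and 4. Sdf2l1 was at −0.0231 under voom and −0.00841 and −0.00553 in limma on RPKM, and from −0.0655 to 0.20 with 1 library left out. Sel1l was at −0.0493 to 0.0122 and Sesn2 at −0.0184 to 0.24 with 1 library left out, and Sesn2 at −0.00712 and −0.00544 in limma on RPKM. The cause was not tested. In the wider list, leave-one-out counts were 32 to 35 higher and 5 to 8 lower, and over all genes 3431 to 4534 higher and 3095 to 4475 lower. Intron reads gave 7 to 13 higher and 1 to 2 lower genes, with 1 lower without control replicate 2.

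The labels do not say that replicate numbers pair the samples. After removal of group means, libraries of the same number correlated at −0.054, 0.040, 0.179 and 0.113, and those of different numbers at −0.230 to 0.140. For Nampt-cKO 2, 3 and 4 the control of the same number correlated best, and for Nampt-cKO 1 it was control 4. A pairing was not shown and was not tested. With the replicate number as a block, 23 of the 38 genes were higher and 3 were lower, 35 and 6 in the wider list, 3749 and 3767 over all genes, and 10 and 2 of the 37 genes in intron reads. Precision is limited by 4 libraries per group and by spread among Nampt-cKO libraries.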
